A study of Drosophila melanogaster with 4 samples.

Results

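The clusters described here are the regions of significant H3K9me2 enrichment on the distal part of arm 2L, the left arm of the second chromosome of Drosophila melanogaster. The authors deposited a list for the replicate set, the pooled list, and the members are all of its clusters on 2L whose start lies at or below base 21011544 of FlyBase release 5. This is 2L without the 2 Mb next to the proximal end of its sequence. The rule found 370 of the 4277 pooled clusters, or 8.65%, and it used position only. Chromatin came from whole wild-type embryos of the strain Oregon-R. The H3K9me2 ChIP group has 2 libraries, precipitated with a lot of the antibody Ab2 that the labels call new, and the input group has 2 libraries of the same strain and stage. The labels put all 4 samples at 14 to 16 h, while the protocol speaks of embryos up to 16 h old. The deposited lists are 1 per ChIP replicate and the pooled list. The inputs served as references of the authors' enrichment calls and have no list of their own here. The labels do not say whether the replicates came from separate collections, so an SD over them may be technical. No read counts were used, so the depth behind each cluster is unknown.

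Histone H3 dimethylated at lysine 9 is a mark of silent chromatin. In flies it is laid down by methyltransferases such as Su(var)3-9, Eggless and G9a, and it is bound by heterochromatin protein HP1. It fills the repeat-rich chromatin around centromeres, where it is known for silencing transposons and for the variegated silencing of genes that are moved next to it. Along the gene-rich arms it is sparse, and piRNAs, small RNAs that guide Piwi proteins to transposon transcripts, can direct it to single transposon copies in germline and ovarian cells. The reference genome comes from another strain than Oregon-R, and transposon positions are known to differ between fly strains. Gene positions on release 5 were not used here, so the genes and sequences under the clusters are not described.

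Distal 2L carried H3K9me2 as short, scattered clusters that together took up a small part of its 21.0 Mb. The pooled clusters covered 0.903 Mb, which is 4.30% of distal 2L. In the separate lists, the 248 clusters of replicate 1 covered 3.12% and the 181 clusters of replicate 2 covered 2.30%. The replicates' mean was 2.71% ± 0.581 (SD, n = 2). Replicate 1 thus had more clusters and more cover than replicate 2. Whole embryos mix many cell types, so a mark in few cells and a weak mark in many cells cannot be told apart.

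More than 50% of the clusters were under 2 kb long. Pooled lengths had a median of 1921.5 bp, with the middle 50% between 1532.75 and 2530.5 bp, and 207 of the 370 clusters were under 2 kb. The shortest had 1001 bp. Only 23 clusters were at least 5 kb long, and these held 22.0% of the covered length. Only 3 were at least 10 kb long. The median was 2021 bp in replicate 1 and 1922 bp in replicate 2. The 5 longest pooled clusters together held 88.4 kb, or 9.79% of the cover.

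The longest cluster ran from 20170173 to 20199218, a length of 29.0 kb. It was a single cluster of 28.7 kb in replicate 1. In replicate 2 it was split into a cluster of 2.12 kb and one of 26.2 kb, which lay next to each other. The second longest spanned 22.4 kb from 20098663 to 20121076 and was 1 cluster in both replicates, of 22.3 kb in replicate 1 and 21.7 kb in replicate 2. Both belong to the same local group, which is described further on. The third longest lay far from them, from 5160122 to 5178649, with 18.5 kb. Replicate 1 held 2 clusters there, of 10.8 and 3.02 kb, and replicate 2 held 1 cluster of 11.2 kb, so the pooled cluster was wider than either replicate showed. The fourth, 9.61 kb from 20145703 to 20155314, was again part of the large group. The fifth spanned 8.82 kb from 16781774 to 16790598, of which 99.4% was covered in replicate 1 and 84.3% in replicate 2.

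Each cluster has a score, the authors' own value, whose scale the headers do not state and which appears to be a log2 ratio. Scores are used here to rank clusters within a list, since the authors' scaling of the separate lists is not given in the sources used here. On distal 2L the pooled scores had a median of 0.492, with the middle 50% between 0.401 and 0.728, against a median of 0.753 over the whole pooled list. Only 87 of the 370 clusters lay in the upper 50% of the whole list by score. Longer clusters tended to score higher: Spearman's rho of length and score was 0.616 over the 370 clusters and 0.762 over the 316 that were at least 1301 bp long, the length of the shortest replicate cluster. These correlations are across clusters called in the same libraries, and length and score come from the same reads.

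The 5 highest pooled scores fell to clusters of different kinds. The highest, 3.99, belonged to a cluster of only 1006 bp from 7549436 to 7550441, which no cluster of either replicate touched. The fifth, 2.99, belonged to a similar cluster of 1001 bp from 7959135 to 7960135, also touched by neither replicate. Between them stood 3 clusters of several kb that both replicates contained. The cluster from 6992596 to 6997257 had a pooled score of 3.13, with 2.98 in replicate 1 and 3.45 in replicate 2. The cluster from 9973686 to 9979737 had a pooled score of 3.10, with 3.04 in replicate 1 and 3.27 in replicate 2. The cluster from 12559501 to 12565417 had a pooled score of 3.01, with 2.86 in replicate 1 and 3.31 in replicate 2.

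The replicates placed the edges of these 3 clusters with unequal precision. For the cluster at 6992596 the starts lay 120 bp apart between the replicates and the ends 12 bp. For the cluster at 9973686 the ends lay 1 bp apart, but the starts were 9973681 in replicate 1 and 9975486 in replicate 2, a distance of 1805 bp. For the cluster at 12559501 the starts lay 17 bp and the ends 2 bp apart. There the pooled cluster ran on to 12565417, past the replicate ends of 12563767 and 12563769.

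Support by the replicates was counted as a shared stretch of at least 1 bp. Of the 370 distal 2L clusters, 158 were touched by both replicates, which is 42.7% (exact binomial 95% interval 37.6 to 47.9%, counting error only), against 54.6% of the whole pooled list. A further 86 were touched by replicate 1 only, or 23.2%, against 16.9% of the whole list. Replicate 2 only touched 17, or 4.59%, against 3.32%. Neither replicate touched 109, or 29.5%, against 25.2%. The clusters touched by both held 554 kb, or 61.4% of the covered length, and those touched by neither held 151 kb, or 16.7%. On the other 4 distal arms, cut in the same way, both replicates touched 39.0%, replicate 1 only 23.8%, replicate 2 only 4.07% and neither 33.1%. Distal 2L and these arms thus differed in support by 3.68 percentage points. X held 986 of the 2137 pooled clusters on these arms. By arm, both replicates touched 34.2% on 2R, 39.1% on 3L, 30.7% on 3R and 43.9% on X. On the other 3 autosomal arms they touched 34.8%. The 42.7% of 2L was thus above the share of each other autosomal arm and below that of X. These differences were not tested.

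Support went with length and with score. Of the shortest quartile, 1001 to 1530 bp long, none of 93 clusters was touched by both replicates and 75 were touched by neither. In the second quartile both replicates touched 16 of 93, in the third 63 of 92, and in the longest quartile 79 of 92. All 23 clusters of at least 5 kb were touched by both. By score, both replicates touched 16 of 93 clusters in the lowest quartile, 15 of 93 in the second, 50 of 92 in the third and 77 of 92 in the highest. The 54 clusters shorter than 1301 bp could not have a counterpart of equal length in a replicate list, and 51 of them were touched by neither. Without them both replicates touched 50.0% of the remaining 316, against 62.8% of the 3722 clusters of that length in the whole pooled list.

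A small set of clusters broke the association of score and support. Of the 18 clusters with a pooled score of at least 2, both replicates touched 9, replicate 1 only 2, and neither 7. All 4 of them that were shorter than 1301 bp were touched by neither. All 6 that were at least 5 kb long were touched by both. The limits of 2 for the score and 5 kb for the length were chosen after the values were seen.

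**Figure D1:**
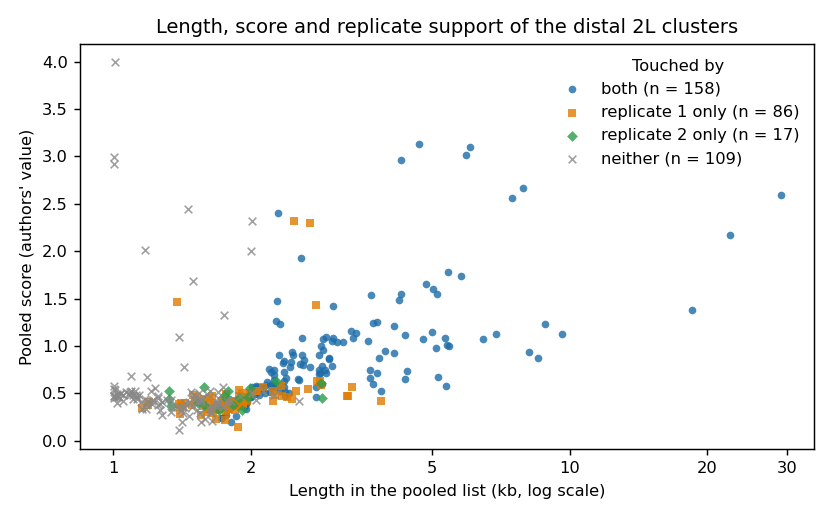
Length in the pooled list (kb, log scale) against pooled score for the 370 distal 2L clusters, 1 point per cluster, with colour and symbol for the replicates that touched it. Clusters touched by both (n = 158) fill the long and high-scoring side, those touched by neither (n = 109) gather under 2 kb, and a few clusters of about 1 kb touched by neither stand at the top left, the highest at 3.99.

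Where both replicates touched a cluster, each mostly covered at least 50% of its pooled length, and the replicate 1 cluster tended to be longer. Of the 158 clusters touched by both, 153 were covered by clusters over at least 50% of their length in each replicate, and 31 over at least 90%. The median covered share of these 158 was 94.6% in replicate 1 and 84.6% in replicate 2. In 149 of them the pooled cluster matched exactly 1 cluster in each replicate, and that cluster matched no other. The left edges of these 149 lay a median of 139 bp apart between the replicates and the right edges 141 bp. The right edges differed by at most 50 bp in 33 clusters and by at most 500 bp in 137. The replicate 1 cluster was the longer in 117 of the 149, with median lengths of 2246 bp in replicate 1 and 1971 bp in replicate 2.

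The order of these 149 clusters by score was similar in the replicates. Pearson's r was 0.962 and Spearman's rho 0.857, and r was 0.952 without the 2 clusters farthest from the median score of replicate 1. The correlation is a description across clusters of the same 2 libraries. It covers only clusters that passed the calling in all 3 lists.

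**Figure D2:**
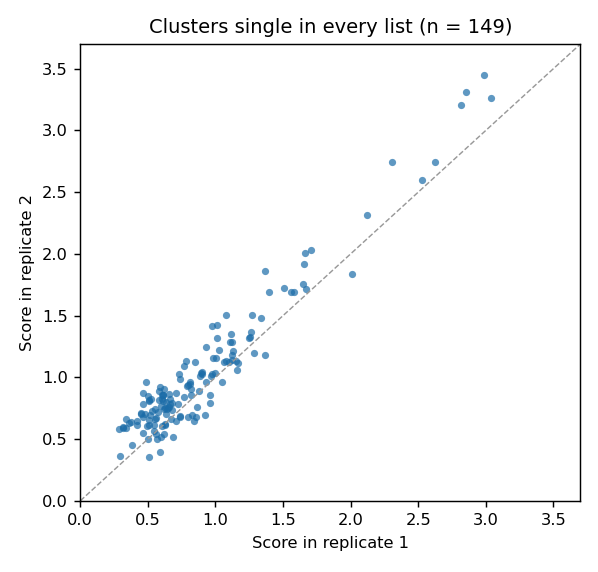
Score in replicate 1 against score in replicate 2 for the 149 distal 2L clusters that are a single cluster in all 3 lists, 1 point per cluster, with the line of equal scores dashed. Most clusters score under 1.5 in both lists, and clusters with higher scores in replicate 1 tend to have higher scores in replicate 2 (rho = 0.857).

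Seen from the replicate lists, the pooled list left out almost nothing. Of the 248 replicate 1 clusters on distal 2L, 247 were touched by a pooled cluster, and of the 181 replicate 2 clusters, 179 were. Between the replicates the overlap was uneven. Replicate 1 touched 162 of the 181 replicate 2 clusters, or 89.5%, and replicate 2 touched 160 of the 248 replicate 1 clusters, or 64.5%. In base pairs, 438 kb were shared, which is 66.7% of the replicate 1 cover and 90.5% of the replicate 2 cover.

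Clusters occurred along the whole of distal 2L, and the 1 Mb next to the boundary had the highest cover. In 21 windows of 1 Mb counted outward from the boundary, the last slightly longer, every list had at least 1 cluster in each window. The window next to the boundary, from 20011545 to 21011544, was covered over 10.8% in replicate 1 and 9.55% in replicate 2. A single local group, described in the following paragraphs, held 84.3 of its 108 covered kb in replicate 1 and 75.3 of 95.5 kb in replicate 2. Without the stretch of that group, the covered share of the window was 2.88% in replicate 1 and 2.45% in replicate 2. The second highest window, from 5011545 to 6011544, was covered over 4.87% and 3.88%. The medians over the 21 windows were 2.42% in replicate 1 and 1.75% in replicate 2. The lowest window in both lists, from 14011545 to 15011544, was covered over 0.697% and 0.2%, with 3 clusters in replicate 1 and 1 in replicate 2. The windows therefore did not decline steadily with distance from the boundary: the 3 windows from 17011545 to 20011544 had mean shares of 1.75%, 1.22% and 2.15%, counted from the left, each below the mean of 2.71% over all of distal 2L.

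**Figure D3:**
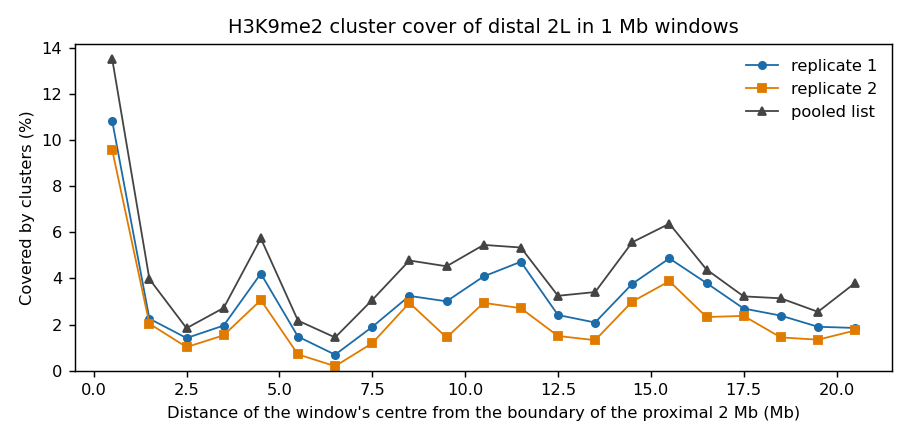
Share of each 1 Mb window of distal 2L covered by clusters (%) against the distance of the window's centre from the boundary of the proximal 2 Mb (Mb), with lines for replicate 1, replicate 2 and the pooled list. The window next to the boundary reaches 10.8% in replicate 1 and 9.55% in replicate 2, and all other windows stay at or below 4.87% and 3.88%.

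Local groups were runs of at least 3 pooled clusters with gaps of at most 20 kb between neighbours. There were 30, with 126 of the 370 clusters and 38.2% of the covered length. Of these groups 16 had 3 clusters, 8 had 4 and 6 had 5 or more. Another 126 clusters were alone, with more than 20 kb to either side, and 59 pairs made up the rest. The groups spanned 5.93 to 173 kb, with a median of 26.1 kb. Both replicates touched 58 of the 126 clusters in groups, or 46.0%, and 100 of the 244 outside groups, or 41.0%.

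The largest group was of another size than the rest. It spanned 173 kb from 20050257 to 20223046, ending 0.788 Mb from the boundary, and had 18 pooled clusters over 97.5 kb. Replicate clusters covered 84.3 kb of it in replicate 1 and 75.3 kb in replicate 2, or 46.2% ± 3.69 of its span (SD, n = 2). Its 3 longest clusters held 61.1 kb, and the other 15 were 1.12 to 4.98 kb long. The neighbouring clusters outside it were 112 kb away on the left and 44.0 kb on the right. This 1 group held 10.8% of the pooled cover of distal 2L, 12.8% of that in replicate 1 and 15.6% of that in replicate 2. Cytological band 38C, known for a piRNA cluster, a locus of transposon remnants from which piRNAs are made, is near here. The borders of that locus were not placed on these coordinates.

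Without the stretch of this group, the covered share of distal 2L was 2.74% for replicate 1 and 1.96% for replicate 2, on average 2.35% ± 0.555 (SD, n = 2). Within each list the share fell, from 3.12% to 2.74% in replicate 1 and from 2.30% to 1.96% in replicate 2. The fall of the mean from 2.71% was smaller than the SD between the replicates. That SD measures a difference in level between the lists, so it does not measure how much this fall varies. The whole group was chosen for its covered length, so its size is a description.

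**Figure D4:**
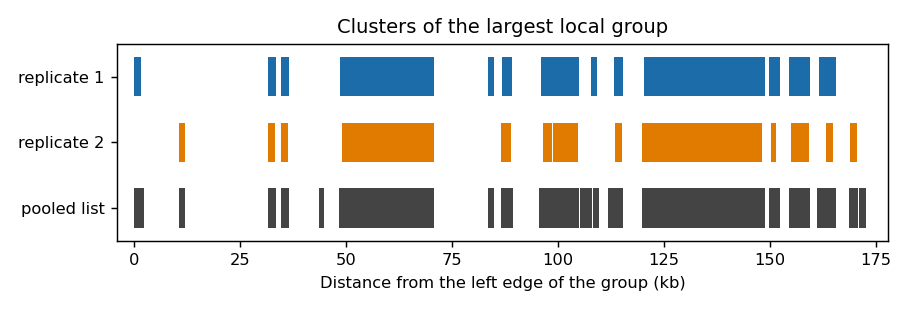
Clusters of the largest local group in the 3 lists, as bars along the distance from the group's left edge (kb). Both replicates have the 2 long blocks of 22.4 and 29.0 kb of the pooled list, while several of the short clusters appear in 1 replicate only or in the pooled list alone.

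The next 5 groups by covered length lay far from the boundary and were much smaller. The group from 9973686 to 10011020 had 4 clusters over 17.8 kb and contained the cluster with the pooled score of 3.10. Of it, 16.2 kb were covered in replicate 1 and 10.3 kb in replicate 2. The group from 6565928 to 6606070 had 5 clusters over 15.5 kb, with 11.9 kb covered in replicate 1 and 8.24 kb in replicate 2. The group from 4999837 to 5038519 had 3 clusters over 14.7 kb, with 14.4 and 10.0 kb covered in replicates 1 and 2.

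The group from 934552 to 985146, nearest to the left end of the arm among these, was less well supported. It had 7 clusters over 14.4 kb, of which both replicates touched 1 and neither touched 2, and only 4.28 kb of it were covered in replicate 1 and 6.99 kb in replicate 2. The group from 12262886 to 12282906 had 3 clusters over 11.5 kb, with 8.84 and 8.90 kb covered in replicates 1 and 2. Across all 30 groups, 27 had clusters of both replicates inside, 1 had none of either, and in 2 groups every cluster was touched by both replicates.

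Cluster-free stretches made up most of distal 2L. The pooled list left 66 stretches of at least 100 kb without a cluster, 11.3 Mb in all or 53.6% of distal 2L. Of these, 12 were at least 200 kb long and 5 at least 300 kb. Replicate 1 had 70 such stretches over 68.5% of distal 2L and replicate 2 had 70 over 78.0%. The count was thus similar in the 3 lists, while the free length followed how many clusters each list contains. No whole cluster of replicate 1 and only 1 of replicate 2 lay inside a free stretch of the pooled list.

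The longest free stretch ran over 678 kb from 14360125 to 15038108. It lay inside longer free stretches of the separate lists, of 897 kb in replicate 1 and 957 kb in replicate 2, the longest of each list. The next 4 were 406 kb from 17914190 to 18320398, 351 kb from 5747844 to 6098919, 331 kb from 3439111 to 3770236 and 312 kb from 15828885 to 16141275. Neither replicate had any cluster in these 5 stretches. Between neighbouring pooled clusters the median gap was 29.8 kb, 26 of the 369 gaps were under 1 kb, and the shortest was 2 bp.

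At the left end, next to the telomere, the first cluster began 21286 bp into the sequence. It ran to 23651 with a pooled score of 0.633 and was touched by both replicates, from 21425 to 23557 in replicate 1 and from 21400 to 23552 in replicate 2. The second cluster followed at 106422. At the boundary of the rule the last cluster inside, from 20957515 to 20958663, had a score of 0.408 and was touched by neither replicate. The first cluster outside, from 21130468 to 21132327, had a score of 0.391 and was touched by replicate 1 only. The boundary therefore fell into a free stretch and divided no cluster. That stretch was cut at the boundary, which left 52.9 kb of it inside. It is thus not among the 66 pooled free stretches of at least 100 kb.

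Set beside the distal parts of the other large arms, each without its proximal 2 Mb, distal 2L had a covered share near those of 2R and 3L and below that of X. The covered share was 2.71% ± 0.581 on 2L, 2.86% ± 0.714 on 2R, 2.47% ± 0.598 on 3L, 1.51% ± 0.477 on 3R and 8.23% ± 1.66 on X (SD, n = 2). The arms share their libraries, so they were also compared within each replicate. The share of 2L minus that of 2R was -0.25 percentage points in replicate 1 and -0.057 in replicate 2. For 2L minus 3L it was 0.233 and 0.256 points, for 2L minus 3R 1.28 and 1.13 points, and for 2L minus X -6.28 and -4.75 points, with replicate 1 first. The sign was thus the same in both replicates for each arm. The share of distal 2L was 0.753 ± 0.0128 times that of the other 4 distal arms together and 1.23 ± 0.0634 times that of the other 3 autosomal arms (SD, n = 2). For the 3 autosomal arms the pooled ratio was 1.11. After the stretch of the largest local group was taken out, 2L was covered over 2.74% (replicate 1), 1.96% (replicate 2) and 3.866% (pooled list). The 3 autosomal arms, left whole, had 2.62%, 1.80% and 3.875% in the same order. Both replicates thus stayed above these arms, while the pooled list fell slightly below. The covered lengths behind the first ratio were 0.656 Mb on 2L and 3.69 Mb on the other 4 arms in replicate 1, and 0.483 and 2.66 Mb in replicate 2. Median pooled scores were 0.492 on 2L and 0.555 on the other 4 arms together. By arm they were 0.508 on 2R, 0.517 on 3L, 0.497 on 3R and 0.599 on X. With 2 libraries of 1 condition no test of these differences was made.

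The share of pooled clusters in local groups was 34.1% on 2L, 47.2% on 2R, 43.5% on 3L, 31.3% on 3R and 76.4% on X. Free stretches of at least 100 kb took up 53.6% of 2L, 49.6% of 2R, 50.9% of 3L, 63.5% of 3R and 11.4% of X in the pooled list. The order of 2L, 2R and 3L was another in the replicate lists. There the share was 68.5% of 2L, 69.1% of 2R, 72.5% of 3L, 80.4% of 3R and 23.9% of X in replicate 1. In replicate 2 it was 78.0% of 2L, 80.9% of 2R, 84.0% of 3L, 91.9% of 3R and 36.0% of X. The longest free stretch of the pooled list was longer on 2L, 678 kb, than on any of the other 4 arms, where the longest was 604 kb on 3R. In replicate 2 this order did not hold, with 957 kb on 2L, 1388 kb on 2R and 1129 kb on 3R. The 10 most covered windows of 100 kb held 24.5% of the pooled cover of 2L, against 30.4% on 2R, 19.3% on 3L, 18.2% on 3R and 15.7% on X. The single window from 20100001 to 20200000 held 7.93% of that of 2L. The most covered window held 8.23% on 2R, 2.64% on 3L, 2.38% on 3R and 2.47% on X. In replicate 1 this share was 10.1% on both 2L and 2R, and in replicate 2 it was 12.7% on 2L and 13.6% on 2R.

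**Figure D5:**
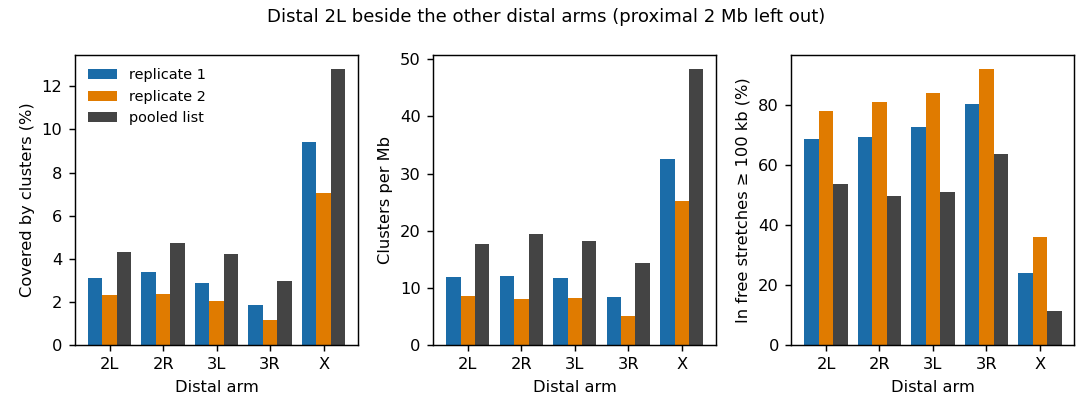
Covered share (%), clusters per Mb and share of the length in cluster-free stretches of at least 100 kb (%) on distal 2L and the other 4 distal arms, with 1 bar each for replicate 1, replicate 2 and the pooled list. Distal 2L, at 3.12%, 2.30% and 4.30% covered, lies near 2R and 3L, while X stands apart in all 3 panels.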

How the data were processed

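The values come from 3 lists of H3K9me2 enrichment clusters that the authors deposited, 1 per ChIP replicate and 1 for the replicate set. Per the submitters' processing notes Bowtie 0.12.7 was used, and per the file headers the build is FlyBase release 5. Which program called the clusters, at which threshold, and how replicates were combined is not given in the sources used here. Starts and ends are the authors' deposited positions. The deposited score seems to be a log2 value: of the tied scores, 28.8% (replicate 1), 20.9% (replicate 2) and 27.7% (pooled list) are whole-number ratios (denominator up to 100, relative tolerance 1e-06) of the highest tied score with base 2, and at most 0.685% with base e or 10. The base is inferred. Read counts were not used here, so no depth or read-based interval is given.

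Intervals were compared with Python 3.11.15, numpy 2.4.6 and scipy 1.17.1, and the functions were tested on simulated clusters. A shared stretch of at least 1 bp counted as support. Lengths were not corrected for assembly gaps or sequence without unique reads. Lists shorten with a stricter threshold or fewer reads. Differences in level between lists, and so the SD over the replicates, cannot be told apart from such effects. The regions named are the 5 longest and the 5 highest-scoring clusters, the 6 groups of largest cover, the 5 longest free stretches, and the clusters at the ends and at the boundary. The members, these rules and the alternatives were chosen with earlier results of these data known. With 2 libraries of 1 condition no test between groups was made.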

Additional observations from a re-analysis of the deposited data

How the results depend on the processing

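Of 45 alternatives, 23 left a value within the spread between replicates, within its exact binomial interval, or, for counts, within 1.5 times, and the others are given here. Keeping the 50% of clusters with the highest scores in each list, distal 2L held 87 clusters with a median length of 3030 bp, 82.8% of them touched by both replicates. The mean covered share was then 0.668%, and the 10 most covered windows held 47.9% of the pooled cover. The pooled list gave a covered share of 4.30% and a ratio to the other distal arms of 0.723. As the mean of the replicates, the ratio was 0.632 without the proximal 1 Mb and 0.690 without the proximal 3 Mb. This mean was 0.651 without the largest local group (added after the data were seen). Against autosomal arms only the mean was 1.23, and the pooled list gave 1.11, so with all clusters kept the side of 1 depends on X. The largest group was taken out of 2L while the other arms were left whole, which lowers the ratio by design. Leaving out 1 replicate gave covered shares of 2.30 to 3.12% and ratios of 0.744 to 0.762. These settings are among the 23, but their outcome was fixed in advance. With 2 replicates, each value always lies closer to their mean than the SD. Among clusters at least as long as the shortest replicate cluster, 50.0% were touched by both. The median length was 2021 bp in replicate 1. The number of local groups was the least stable value: 52 with gaps up to 50 kb, 15 in replicate 1, 6 in replicate 2 and 4 among clusters touched by both. The 10 windows held 28.9% of the cover in replicate 1, 32.2% in replicate 2 and 19.0% without the largest group, 20 windows of 50 kb held 29.6% and 5 of 200 kb held 21.4%. Beyond what each setting removes or adds by design, the cause was not tested. Depth could not be assessed. No paired analysis was possible because clusters are listed only for the ChIP samples.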

Other observations

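Some high-scoring clusters of distal 2L had similar lengths, which was noticed after the lengths were seen. In replicate 1, all 3 clusters of at least 4200 and under 4300 bp on distal 2L had a score of at least 2.5, with lengths of 4261 to 4284 bp, and in replicate 2, 3 of 4 did, with 4250 to 4265 bp. These were not all the same clusters: only 2, starting at 12559501 and 16513692, met both limits in both replicates. On the other 4 distal arms, 3 of 9 clusters of that length in replicate 1 and 3 of 6 in replicate 2 had such a score. Among clusters from 4300 to under 4500 bp, 0 of 1 on distal 2L and 0 of 16 on the other arms did in replicate 1, and 0 of 3 and 1 of 12 in replicate 2. Among those from 4000 to under 4200 bp the numbers were 0 of 3 on distal 2L and 3 of 20 on the other arms in replicate 1, and 1 of 2 and 0 of 17 in replicate 2. These are counts of few clusters, with no test. The score limit was the same in both lists, whose scaling is not known. Replicate 2 had the higher score in 119 of the 149 clusters that were single in every list. The counts are therefore to be read within a replicate and not between replicates.

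The cluster from 11540942 to 11548395, named after its values were seen, ran from 11540957 to 11548389 in replicate 1 and from 11540981 to 11548392 in replicate 2. Its starts thus lay 24 bp and its ends 3 bp apart, against medians of 139 and 141 bp over the 149 clusters that were single in every list. Such close edges were not particular to it. Starts and ends lay 17 and 2 bp apart at 12559501, 22 and 6 bp at 15826589, and 12 and 8 bp at 16513692. Other high-scoring clusters differed more: 117 and 65 bp at 3251615, 120 and 12 bp at 6992596, 1805 and 1 bp at 9973686, and 558 and 118 bp at 20098663.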
